A study of Mus musculus with 8 samples.

Results

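The oligoadenylate synthetase (Oas) genes examined here are Oas1a, Oas1b, Oas1c, Oas1g, Oas2, Oas3, Oasl1 and Oasl2. They were chosen as a gene family by symbol and make up 8 of the 18088 genes in the count table. The libraries come from differentiated 3T3-L1 cells, a mouse line, labelled wild type, that can be turned into fat-storing cells in a dish. Of 8 libraries, 4 came from cells given siRNA against Erk3 (siErk3) and 4 from cells given a control siRNA with no target (siNTC). Each siRNA was a pool of sequences. Both groups received 1.25 nM siRNA per square centimeter with the same reagent and were harvested 48 h later. The sources do not state whether replicates were separate cultures, so p-values here reflect the spread between samples only, which may be technical.

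Oas enzymes sense double-stranded RNA, a common sign of viral infection, and respond by joining ATP into short oligoadenylates. These small molecules set off the cleavage of viral and cellular RNA, which halts protein synthesis. Oas genes are textbook interferon-stimulated genes. Type I interferon activates JAK1 and TYK2, and the transcription factor complex that follows binds a promoter element that repeats GAAA. The promoters below are therefore shown with that repeat marked.

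The members lie in 2 groups on chromosome 5 of mm10. Oasl2 (114896936 to 114912234) and Oasl1 (114923240 to 114937915), both on the plus strand, span 40980 bases. The other 6 span 177189 bases, in the order Oas2 (120730333 to 120749853, minus), Oas3 (120753098 to 120777661, minus), Oas1c (120800194 to 120812514, minus), Oas1b (120812635 to 120824163, plus), Oas1g (120876142 to 120887613, minus) and Oas1a (120896256 to 120907521, minus). Oas1c and Oas1b start back to back, with 120 bases between them. GENCODE calls 7 members protein coding and Oas1b a polymorphic pseudogene. Oas1b is the mouse flavivirus resistance gene, which is truncated in most laboratory strains.

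RefSeq promoter sequence (build GRCm38.p6, which is mm10) was at hand for 6 members. The stretches below end at the base before the RefSeq start and are written 5′ to 3′ on the strand of the gene. Capitals mark matches to GAAANNGAAA, searched on both strands. Shown are the members with a match and, for contrast, Oasl2, which had the most counts of all members and no match.
Oas1a, chr5:120907526-120907675, minus strand: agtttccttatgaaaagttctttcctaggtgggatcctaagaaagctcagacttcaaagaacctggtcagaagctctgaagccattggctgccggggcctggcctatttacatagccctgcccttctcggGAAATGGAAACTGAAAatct
Oas1g, chr5:120887614-120887763, minus strand: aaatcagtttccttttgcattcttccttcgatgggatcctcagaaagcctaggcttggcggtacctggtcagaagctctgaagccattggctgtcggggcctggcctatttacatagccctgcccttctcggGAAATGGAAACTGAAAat
Oas1c, chr5:120812515-120812634, minus strand: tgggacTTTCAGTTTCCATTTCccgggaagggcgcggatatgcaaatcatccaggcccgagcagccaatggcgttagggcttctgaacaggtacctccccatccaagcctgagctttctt
Oas3, chr5:120777660-120777809, minus strand: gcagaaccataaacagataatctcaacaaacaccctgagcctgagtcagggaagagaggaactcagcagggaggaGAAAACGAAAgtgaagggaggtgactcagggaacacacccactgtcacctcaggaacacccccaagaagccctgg
Oasl2, chr5:114896784-114896933, plus strand: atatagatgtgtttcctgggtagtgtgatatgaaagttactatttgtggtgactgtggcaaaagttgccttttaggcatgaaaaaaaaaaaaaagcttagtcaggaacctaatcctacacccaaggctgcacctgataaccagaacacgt

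The repeat was found in 4 of the 6 promoters, Oas1a, Oas1g, Oas1c and Oas3, and it occurs in 3.44% of all 32851 promoter windows of 300 bases (250 before and 50 after the start). No match was found for Oasl1 or Oasl2. In Oas1a, Oas1g and Oas1c 2 overlapping matches join into 1 stretch of 16 bases, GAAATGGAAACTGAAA. It ends 5 bases before the start of Oas1a and 3 bases before that of Oas1g. In the sequence of Oas1c it is on the opposite strand, 99 to 114 bases before the start, in the 120 bases shared with Oas1b, and therefore reads toward Oas1b, 7 to 22 bases before the GENCODE start of that gene. In this way it stands to Oas1b much as it stands to Oas1a and Oas1g. Of 27025 genes with promoter sequence, 5 hold these 16 bases. Besides the 3 Oas1 genes they are Apol9a and Apol9b on chromosome 15, where the stretch lies 22 to 105 bases before an annotated start on the opposite strand. A match is a description of the letters and not a site of binding.

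Total counts were 9854522 to 9943572 per library. Mapk6, which encodes Erk3, had 642 to 774 counts in the siErk3 libraries, against 5344 to 5697 counts in the siNTC libraries (log2 fold change -3.06 ± 0.06 SE, Benjamini-Hochberg adjusted p = 2.09e-22, edgeR quasi-likelihood test). All 8 adipocyte markers listed were measured and called lower (Pparg, at a log2 fold change of -0.13, lost its call with library sizes only, with adjusted p = 0.513 from edgeR, and without siErk3 replicate 1, 3 or 4 or siNTC replicate 1 or 4, with adjusted p = 0.0849 to 0.115), with a summed level of 16697 to 17758 CPM (counts scaled to library size with TMM factors) in siErk3 and 29047 to 31331 CPM in siNTC libraries. The 4 preadipocyte markers measured were lower as well (150 to 160 CPM in siErk3 and 270 to 295 CPM in siNTC libraries). Of 8 leukocyte markers, Cd68, Cd14 and Csf1r were measured, with a sum of 20.4 to 24.97 CPM in siErk3 and 9.89 to 14.5 CPM in siNTC libraries, and Cd68 and Cd14 were called higher. The 5 others, which include Ptprc and Adgre1, were not analysed here. Of 5 endothelial markers only Pecam1 was measured (1.17 to 1.58 CPM in siErk3 and 0.52 to 1.26 CPM in siNTC libraries). The part of these markers in the results for Oas genes was not tested.

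siErk3 adipocytes contained abundant Oas transcripts, while siNTC adipocytes contained almost none. The 8 genes together had 11136, 10980, 10833 and 10136 raw counts in siErk3 replicates 1 to 4, against 17, 18, 16 and 17 raw counts in siNTC replicates 1 to 4. This was 1054 ± 36.7 CPM in siErk3 and 1.77 ± 0.08 CPM in siNTC libraries (SD, n = 4 each). As a ratio it was 595-fold, with a 95% interval of 469 to 766 that, like all counting intervals and floors here, holds no other error than that of counting reads, which were not marked by molecule. Oas transcripts took 0.102 to 0.113% of all counts in siErk3 libraries, against 0.000161 to 0.000183% in siNTC libraries. In such bulk RNA, more cells with a transcript and more of it per cell cannot be told apart.

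No member exceeded 1 CPM in any siNTC library, and all 8 therefore entered the table, which holds genes above 1 CPM in at least 4 libraries, through the siErk3 libraries alone. Genes chosen in this way had to differ, so a count of members called gives no support, and no p-value is given for a member. For comparison, 24.9% of the 17972 genes tested were called higher in siErk3 and 23.8% were called lower, and in 22.5% every siErk3 value lay above every siNTC value. The sizes and the raw counts are what the members' data show.

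Oas1a encodes a catalytically active synthetase. It had 1207, 1142, 1192 and 1138 counts in the siErk3 libraries, against 0 in each of the 4 siNTC libraries. Taking 3 counts over all siNTC libraries as the floor, this is at least 1464-fold higher. Oas1g, its closest relative here, had 704, 701, 765 and 666 counts in the siErk3 libraries, against 1, 1, 0 and 1 in the siNTC libraries. The ratio was 888-fold (95% counting interval 303 to 4307). The siErk3 libraries were all high and close to each other for both genes. That neither overlapped siNTC follows from how both entered the table. The ratio of Oas1a to Oas1g counts was 1.56 to 1.71 over the 4 siErk3 libraries. Of the 50-base stretches in the transcripts of Oas1a, 57.6% also occur in another gene, which was Oas1g for 1057 stretches and Oas1b for 13. For Oas1g the share was 45.7%. The split of reads between both genes is therefore uncertain.

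Oas1b had 334, 280, 274 and 296 counts in the siErk3 libraries, against 4, 4, 6 and 0 in the siNTC libraries. Its log2 fold change was 6.26 ± 0.42 (SE, from edgeR). Oas1c, a further Oas1 paralog, had 84, 71, 86 and 70 counts in the siErk3 libraries, against 6, 7, 4 and 5 in the siNTC libraries. Its log2 fold change of 3.70 ± 0.29 (SE, from edgeR) was the smallest of all members. As for all members, the lack of overlap between the groups was fixed by how both genes entered the table. As ratios of pooled CPM, Oas1c was 13.3-fold higher (95% counting interval 8.61 to 21.5) and Oas1b 79.4-fold higher (47.1 to 146), and these intervals do not overlap.

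The counts of Oas1c need care, because Gm43069 on the other strand shares 227 of its exon bases and the kit does not mark the strand. Gm43069 starts 134 bases from Oas3, pointing away from it, and runs into Oas1c. It had 49, 43, 57 and 46 counts in the siErk3 libraries, against 3, 1, 2 and 3 in the siNTC libraries (log2 fold change 4.27 ± 0.45 SE, from edgeR), and it too entered the table through the siErk3 libraries alone. The siErk3 libraries held 1.51 to 1.71 counts of Oas1c per count of Gm43069. Of the 50-base stretches of Oas1c, 15.1% occur in another gene, including Gm43069 and the paralogs Oas1d, Oas1e, Oas1f and Oas1h, which were not analysed here.

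Oas2 and Oas3 encode the larger synthetases, built from repeated synthetase units. Oas2 had 2455, 2448, 2271 and 2033 counts in the siErk3 libraries, against 1, 0, 0 and 2 in the siNTC libraries. The ratio was 2882-fold (95% counting interval 986 to 13976), and 6503-fold without siNTC replicate 4, which held 2 of the 3 siNTC counts. Oas3 had 1461, 1482, 1514 and 1475 counts in the siErk3 libraries, against 0 in every siNTC library. It was at least 1856-fold higher by the same floor of 3 counts. Few of the 50-base stretches of these genes occur elsewhere (0 for Oas2 and 0.52% for Oas3). In all, 8 genes of the table had no siNTC count. Oas3 (145 CPM) and Oas1a (114 CPM) had the highest CPM of them in siErk3 libraries, and the next was Ifi208 at 7.99 CPM.

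The Oasl genes encode synthetase-like proteins with ubiquitin-like domains at their ends. Mouse Oasl2 keeps synthetase activity, while mouse Oasl1 lacks it and restrains translation of Irf7. Oasl2 had 4815, 4780, 4634 and 4374 counts in the siErk3 libraries, against 4, 6, 6 and 9 in the siNTC libraries. Its log2 fold change was 9.42 ± 0.23 (SE, from edgeR). Oasl1 had 76, 76, 97 and 84 counts in the siErk3 libraries, against 1, 0, 0 and 0 in the siNTC libraries. The ratio was 313-fold (95% counting interval 55.7 to 12386). This ratio rests on the single count in siNTC replicate 1, and without that library Oasl1 was at least 78-fold higher by the floor of 3 counts over the group.

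**Figure D1:**
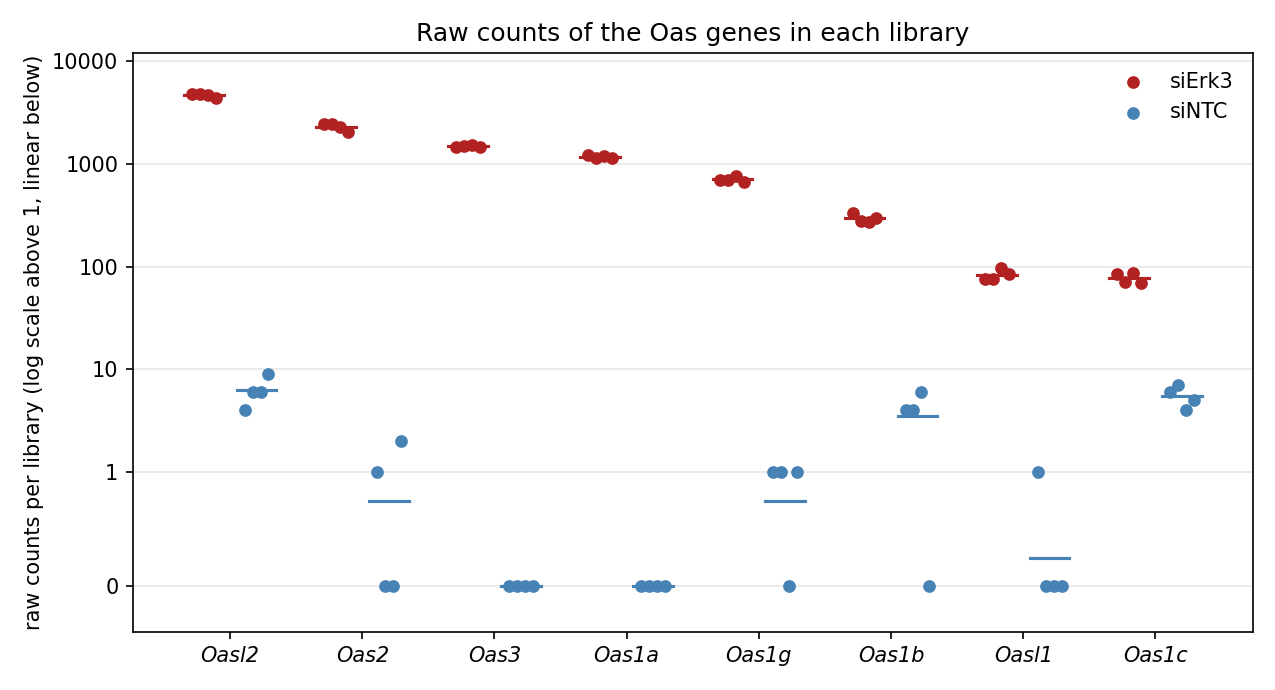
Raw counts per library (y axis, log scale above 1 and linear below) of the 8 Oas genes (x axis, ordered by level in siErk3), with siErk3 libraries in red and siNTC libraries in blue. Each point is 1 library and each short line a group mean, and every siErk3 point lies at 70 counts or above while every siNTC point lies at 9 counts or below.

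Levels of different genes can be compared only per length. Divided by the kilobases of merged exons, Oasl2 was the highest member in siErk3 libraries, at 71.4 ± 2.73 CPM per kb (SD, n = 4). Oas1a followed at 60.7 ± 1.14, Oas2 at 50.6 ± 4.13, Oas1g at 29.7 ± 1.56, Oas3 at 20.5 ± 0.39 and Oas1b at 14.5 ± 1.23 CPM per kb (SD, n = 4 each). The values of each of these 6 in the 4 libraries lay apart from those of the next. Oas1c at 3.16 ± 0.31 and Oasl1 at 3.12 ± 0.37 CPM per kb overlapped (SD, n = 4 each). Oas3 thus stood above Oas1a and Oas1g in raw counts and below both per length.

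Among 17934 genes with a length, Oasl2 ranked 992 from the highest per kb in siErk3 libraries and 17808 in siNTC libraries. Oas1a ranked 1179 and Oas2 1447 in siErk3 libraries, whereas Oas1c and Oasl1 stood at 12277 and 12337. The length used matters for these levels. Per kilobase of the longest transcript, Oasl2 was at 146 CPM per kb and Oas3 at 30.8, Oas1a (60.7) and Oas2 (56.9) overlapped, as did Oasl1 (3.74) and Oas1c (3.32).

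**Figure D2:**
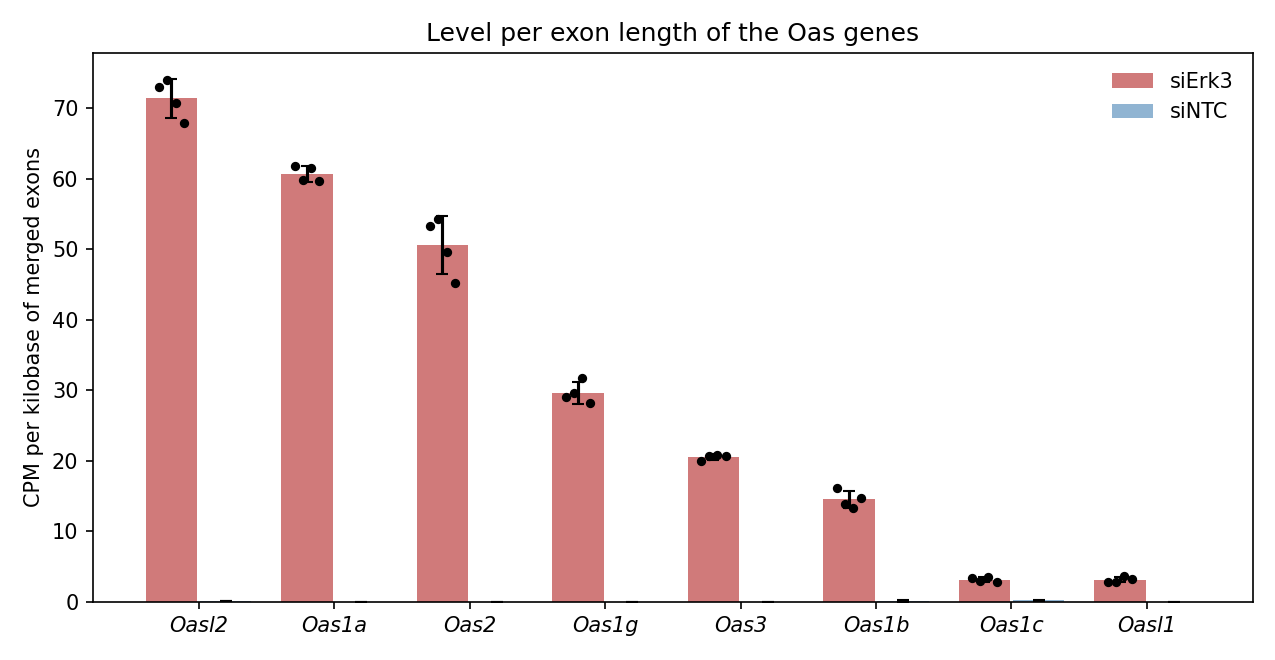
Mean CPM per kilobase of merged exons (y axis) of the Oas genes (x axis, highest first), with siErk3 bars in red left of siNTC bars in blue. Error bars are SD over 4 libraries and points are the siErk3 libraries, and the siErk3 bars run from 71.4 for Oasl2 to 3.12 for Oasl1.

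The make-up of the Oas transcripts differed as well. In siErk3 libraries Oasl2 took 42.8 to 43.5% of the Oas counts, Oas2 20.1 to 22.3%, Oas3 13.1 to 14.6%, Oas1a 10.4 to 11.2% and Oas1g 6.32 to 7.06%. Oas1b took 2.53 to 2.999%, and Oas1c and Oasl1 less than 1% each. In the 4 siNTC libraries, with 68 Oas counts in all, 61 counts came from Oasl2 (25), Oas1c (22) and Oas1b (14). The share of Oas1c was thus 0.65 to 0.79% in siErk3 libraries and 25 to 38.9% in siNTC libraries. Over the pooled counts it was 0.72% (95% exact binomial interval 0.64 to 0.81) in siErk3 and 32.4% (21.5 to 44.8) in siNTC. The counts of Oas1c may include reads of Gm43069 or of other genes, which these intervals do not cover. The share of Oasl2 was 43.2% (42.7 to 43.6) of pooled counts in siErk3 and 36.8% (25.4 to 49.3) in siNTC, so that a difference was not detectable at this depth.

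**Figure D3:**
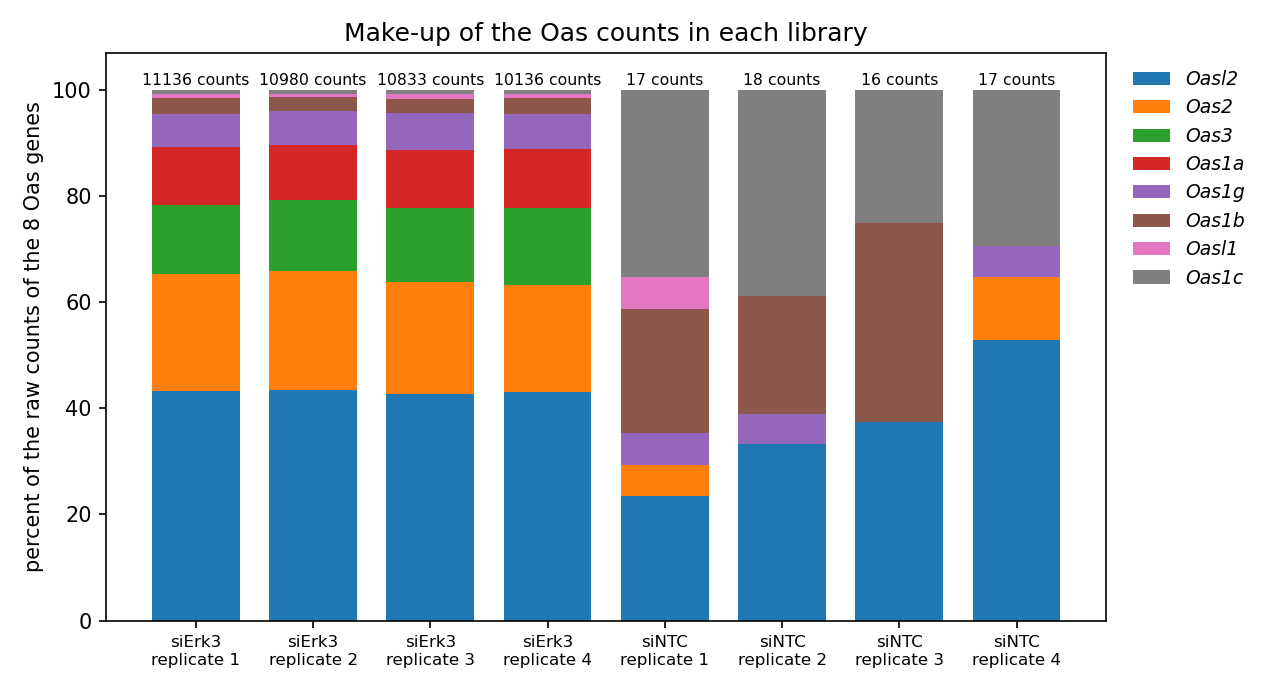
Percent of the raw counts of the 8 Oas genes taken by each gene (y axis, stacked colors) in each library (x axis, siErk3 left of siNTC), with the summed counts above each bar. The siErk3 bars are nearly identical at 10136 to 11136 counts, while the siNTC bars rest on 16 to 18 counts and are mostly Oasl2, Oas1c and Oas1b.

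The members were steady between siErk3 replicates. The highest library was 1.04 to 1.29 times the lowest, with a coefficient of variation of 1.87% (Oas1a) to 11.8% (Oasl1). For Oas1a, Oas1c and Oas3 this was below the counting error alone (2.92% for Oas1a, 11.3% for Oas1c and 2.60% for Oas3). Oas2 varied most beyond it, at 8.16% against 2.08%, with 237, 242, 221 and 201 CPM in replicates 1 to 4. siErk3 replicate 4 was the lowest library for 5 members and the highest for 0.

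The other listed genes of the oligoadenylate pathway did not move together. Of these 8, 4 were measured, of which 1 was higher, 1 was lower and 2 were not called, with a median log2 fold change of -0.03 beside 0.00 over all genes tested. The shares over all genes tested were 24.9% higher and 23.8% lower. The remaining 4 of the list, the paralogs Oas1d, Oas1e, Oas1f and Oas1h, were not tested.

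Abce1, which encodes a factor that recycles ribosomes, was at 113 ± 11.3 CPM in siErk3 and 96.4 ± 10.5 CPM in siNTC libraries (SD, n = 4 each). The log2 fold change was 0.23 ± 0.07 (SE, adjusted p = 0.0134 from edgeR), with overlapping groups, and the call was lost with upper-quartile scaling (adjusted p = 0.0771 from edgeR) and also without siErk3 replicate 4 (adjusted p = 0.0786) or siNTC replicate 3 (adjusted p = 0.0557). Akap7 and Pde12 encode phosphodiesterases that degrade oligoadenylates. Akap7 was lower, at 17.5 ± 2.12 CPM in siErk3 and 22.5 ± 2.30 CPM in siNTC libraries (SD, n = 4 each), with a log2 fold change of -0.37 ± 0.10 (SE, adjusted p = 0.0027 from edgeR). Pde12, at 18.3 ± 1.5 CPM in siErk3 and 18.5 ± 2.34 CPM in siNTC libraries (SD, n = 4 each), was not called (log2 fold change -0.01, adjusted p = 0.924 from edgeR). Cnp, which encodes a related phosphodiesterase of myelin, was at 38.96 ± 2.73 CPM in siErk3 and 40.4 ± 0.79 CPM in siNTC libraries (SD, n = 4 each), and was not called either (-0.05, adjusted p = 0.536 from edgeR).

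Other genes around the sensing of double-stranded or foreign nucleic acid, not all of them sensors, were mostly higher. Of 11 listed genes, all of them measured, 8 were higher, 1 was lower and 2 were not called, with a median log2 fold change of 2.79. Over all genes tested the shares were 24.9% higher and 23.8% lower, around a median of 0.00. The largest were Zbp1 (6.04 ± 0.11 SE), a sensor of left-handed nucleic acid, Dhx58 (5.68 ± 0.12 SE), which encodes LGP2, and Ifih1 (4.17 ± 0.13 SE), which encodes MDA5. Their adjusted p-values from edgeR were 2.01e-25, 1.92e-24 and 1.61e-20. This list was chosen with earlier results of these data known, so its p-values are descriptive only. The smallest changes were in Mavs, the adaptor of these helicases (-0.31 ± 0.06 SE, adjusted p = 0.000141 from edgeR), and Prkra, an activator of the kinase PKR (-0.05 ± 0.08 SE, adjusted p = 0.614). Prkra was thus not called, and its sign turned with library sizes only (0.03).

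Of 17 genes of interferon signaling, 14 were measured, of which 12 were higher and 2 were lower, with a median log2 fold change of 0.83. The shares over all genes tested were 24.9% higher and 23.8% lower. The interferon genes on the list, Ifnb1, Ifna4 and Ifna2, were not analysed here. Among these 14, the largest increases were in Usp18, a brake on the type I receptor (5.69 ± 0.11 SE), Irf7, a factor that drives interferon genes (5.41 ± 0.09 SE), and Stat2 (3.53 ± 0.06 SE). Their adjusted p-values from edgeR were 6.41e-25, 5.63e-25 and 1.5e-23. The sensor and interferon lists were chosen with earlier results of these data known. The largest changes were then picked from them, so their p-values are descriptive only. The smallest changes were in the kinase Jak1 (0.18 ± 0.05 SE, adjusted p = 0.00366 from edgeR) and the type II receptor chain Ifngr1 (-0.22 ± 0.06 SE, adjusted p = 0.00318). The call of Jak1 was lost with upper-quartile scaling (adjusted p = 0.0599) and that of Ifngr1 with library sizes only (adjusted p = 0.0576).

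**Figure D4:**
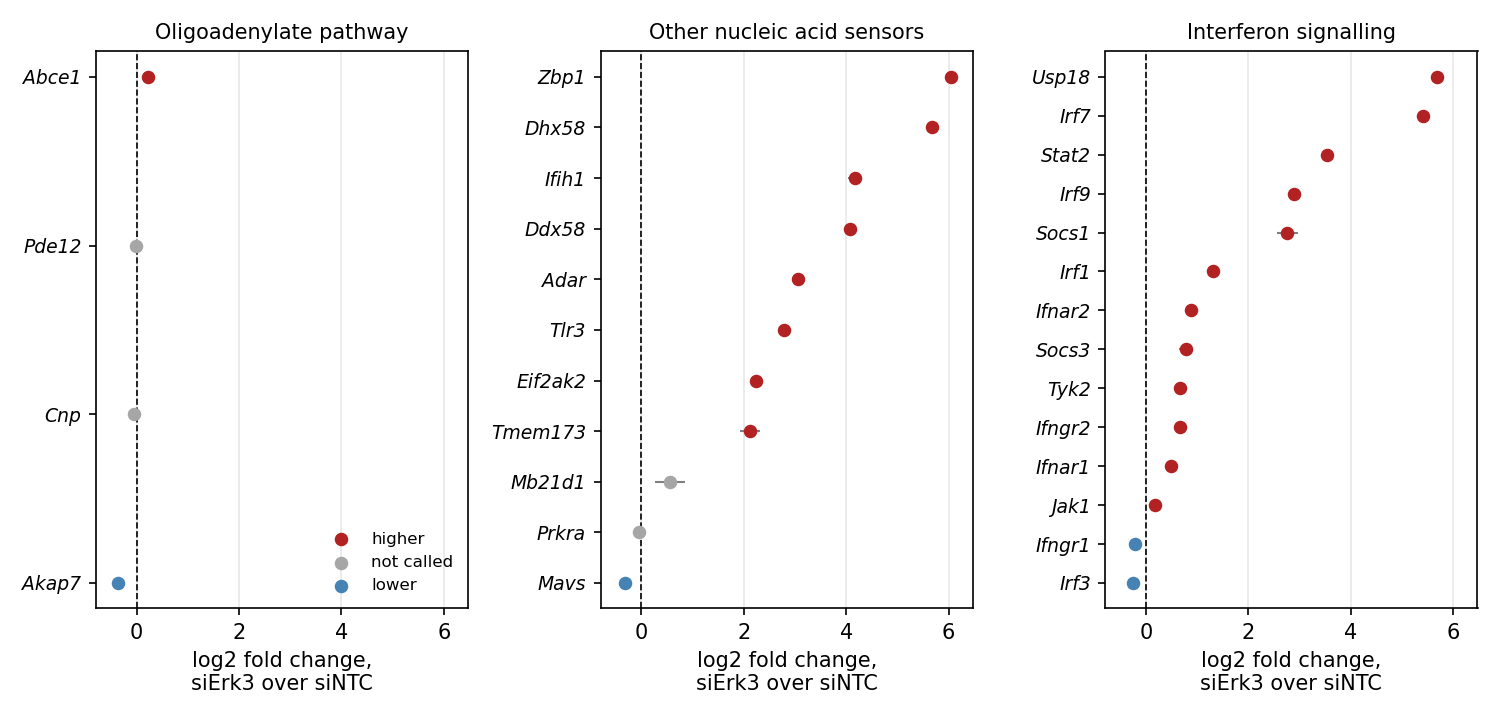
Log2 fold change, siErk3 over siNTC (x axis), of measured genes of the oligoadenylate pathway, of other genes around nucleic acid sensing and of interferon signaling (y axis, one gene per line). Points are edgeR estimates with standard errors, colored red for higher, blue for lower and gray for not called at an adjusted p under 0.05, the dashed line is the median of all genes tested, and the largest values are those of Zbp1 (6.04) and Usp18 (5.69).

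The flanking genes in both regions were set beside the members. Of the 20 nearest genes of the table, 5 on each side of each group and 4243 to 476489 bases away, 7 were higher, 1 was lower and 12 were not called, with a median log2 fold change of 0.16. As background, the same test gave upward calls for 24.9% and downward calls for 23.8% of 17972 genes, around a median of 0.00. The number of flanking genes called higher ran from 5 with upper-quartile factors to 12 with library sizes only. Whether these flanking genes exceeded the background was not tested. Trafd1, which encodes a zinc finger protein that dampens innate immune signaling, was raised most (log2 fold change 1.04 ± 0.05 SE, adjusted p = 2.84e-14 from edgeR). It had 1885, 1832, 1900 and 1814 counts in the siErk3 libraries, against 845, 887, 858 and 808 in the siNTC libraries, without overlap. Gm42917, which overlaps Trafd1 on the other strand, rose by 0.68. Smaller increases were called in 2210016L21Rik (0.42), Slc8b1 (0.39), Ddx54 (0.26), Gm43579 (0.26), which lies within Ddx54 on the other strand, and Ankrd13a (0.20), and Hectd4 fell by 0.20 on the log2 scale. The call of Ankrd13a was lost with upper-quartile scaling (adjusted p = 0.0512) and that of Hectd4 with library sizes only (adjusted p = 0.131). Gm43579 lost its call with upper-quartile scaling, with DESeq2 and without siErk3 replicate 1 or 4 or siNTC replicate 1 or 2 (adjusted p = 0.0607 to 0.146).

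**Figure D5:**
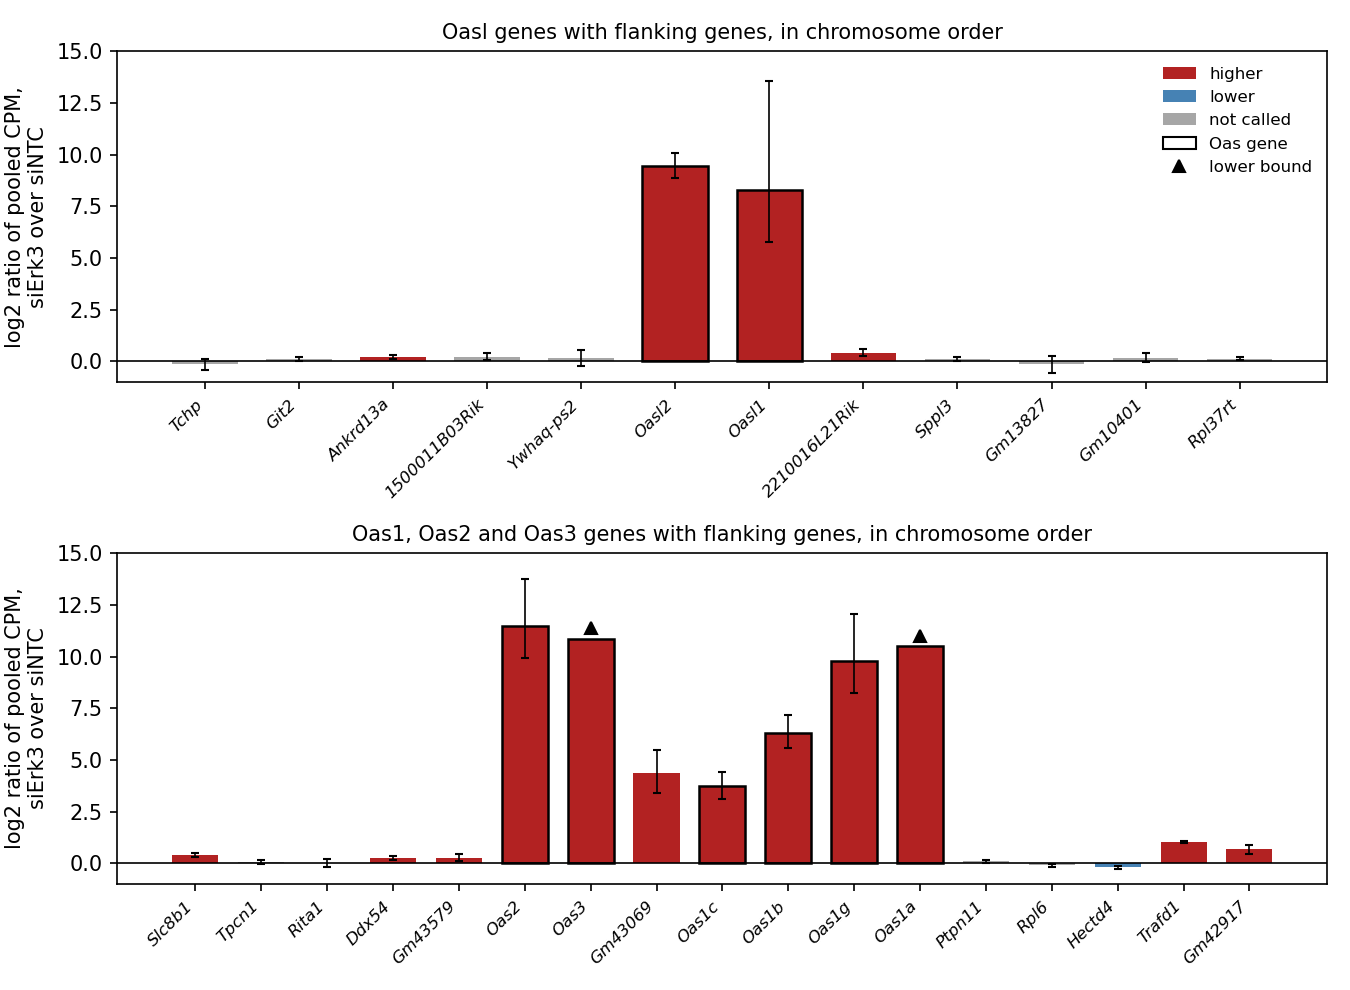
Log2 ratio of pooled CPM, siErk3 over siNTC (y axis), of the Oasl genes (upper panel) and the Oas1, Oas2 and Oas3 genes (lower panel) with 5 flanking genes on each side (x axis, in chromosome order). Oas genes are outlined, error bars are 95% counting intervals, triangles mark the lower bounds of Oas3 and Oas1a, colors give the edgeR call, and flanking genes stay at or below the 1.04 of Trafd1. The higher bar without outline between Oas3 and Oas1c is Gm43069 (20.3-fold), which lies inside the group and is not a flanking gene.

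The genes whose pattern was most like the mean of the 8 members over the 8 libraries were Apol9b (Pearson r = 0.9999), Cmpk2 (0.9999), Ifit3b (0.9998), A930037H05Rik (0.9998) and Zbp1 (0.9998), computed on log2(CPM + 1). The points form 1 cluster per group, so that the values of r describe mainly the difference between groups, and 392 of 17964 other genes (2.18%) exceeded 0.99. Apol9b, an apolipoprotein L gene, is also 1 of the 5 genes with the 16-base stretch of the Oas1 promoters. It had 1288, 1201, 1269 and 1230 counts in the siErk3 libraries, against 4, 4, 4 and 5 in the siNTC libraries. Apol9a, singled out for that stretch after its values were seen, had 1283, 1281, 1309 and 1230 counts in the siErk3 libraries, against 7, 6, 5 and 11 in the siNTC libraries. These close copies may share reads. Their siNTC means were 0.76 CPM for Apol9a and 0.44 CPM for Apol9b, so both entered the table because of the siErk3 libraries. With the 3 Oas1 genes, all 5 holders of the stretch in the reference were measured, at log2 fold changes of 3.70 (Oas1c) and above. Genes that enter in this way had to differ, and the part of the stretch was not tested.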

How the data were processed

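The members and gene lists were chosen with earlier results of these data known. The authors sequenced poly(A) RNA, with an unstranded kit, and their processing notes name bcl2fastq, FastQC, Bowtie2, edgeR and the build mm10. The counting program and read length are not given in the sources used here. The deposited table holds raw counts, not normalized, and was tested to hold only genes above 1 CPM in at least 4 libraries. A second table of the authors' own fold changes, average log2 CPM and p-values was not used.

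The counts were fitted with edgeR 4.0.16 (R 4.3.3), using filterByExpr (minimum count 10, minimum total 15), TMM factors and the quasi-likelihood test on all 8 libraries, with no covariate, since the study names edgeR but no test. Calls used a Benjamini-Hochberg adjusted p under 0.05 over 17972 genes. The test returns no standard error, so each SE was computed from the fitted means, dispersions and variances of the edgeR fit. Total counts of 9854522 to 9943572 per library set the precision. Replicates of a group differed by more than sampling noise (chi-square per gene 1.96 to 8.14). Members with 0 siNTC counts were given a lower bound (floor of 3 counts over the group), those with 1 to 3 a pooled ratio with an exact interval, and the others the fitted value. No p-value is given for the summed level, because the members were chosen with results known. Positions and exon lengths come from GENCODE M21 (18050 of 18088 IDs found) and promoters from RefSeq (6 of 8 members matched, not Oas1b and Oas2). The named genes, by rule, are the members, the measured genes of the pathway list, the 3 largest and 2 smallest changes of the sensor and interferon lists, called flanking genes, the 5 most alike genes and Mapk6. Some genes of the lists are not reported here. Alternatives were DESeq2 1.42.0, limma-voom (limma 3.58.1), RLE, upper-quartile or no scaling factors, other filters, a prior count of 2, summed paralogs, a replicate block, and leaving out each library. Python 3.11.15 with scipy 1.17.1 was used for the remaining steps.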

Additional observations from a re-analysis of the deposited data

Results flagged for a closer look

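Among 26 groups of 4 libraries (members, pathway genes, Mapk6 and the summed level), 2 had a single library set well apart from its 3 partners, and about 1 in 20 groups would show this by chance. Oas1g was at 0 CPM in siNTC replicate 3, against 0.103 to 0.105 CPM in the other siNTC libraries, which is 0 counts against 1 count. Oasl1 was at 0.104 CPM in siNTC replicate 1, against 0 CPM in the other siNTC libraries, which is 1 count against 0 counts. With counts of only 0 and 1, any split of 3 libraries against 1 is flagged. The rate of 1 in 20 therefore does not apply to these groups.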

How the results depend on the processing

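With the replicate block, the log2 fold change was 6.26 for Oas1b, 3.70 for Oas1c and 9.42 for Oasl2, and the block changed no call of Mapk6 or in the pathway, sensor and interferon counts. Among the flanking genes Rpl37rt was added to the 7 higher ones, which gave 8. Same-numbered libraries did not deviate together (correlations of -0.02 to 0.05, against -0.10 to 0.06 for differently numbered ones). No pairing by number was seen, but a weak one could be missed in this way. With all 4 Oas1 genes summed the log2 fold change was 7.74, and with both Oasl genes summed it was 9.39. The summed level was 632-fold with library sizes only, 567-fold with upper-quartile factors and 584-fold to 605-fold when single libraries were left out. Leaving out single libraries gave 0 to 1 higher pathway genes, and upper-quartile factors gave 0, Abce1 losing its call. With library sizes only, 0 interferon signaling genes were lower (Ifngr1 and Irf3 lost their calls), and 12 flanking genes were higher and 0 lower, against 2 lower with upper-quartile factors (Hectd4 and Rpl6). Mb21d1 among the sensors was called higher without siNTC replicate 2 (adjusted p = 0.0063 from edgeR). Library sizes only moved the median of all genes by 0.09 and upper-quartile factors by -0.07 on the log2 scale. Fitted values of Oas1a, Oas3, Oas2, Oas1g and Oasl1 rest on 0 to 3 siNTC counts. Their size depends on the prior count, and for Oas3 it was 13.5 in edgeR, 11.4 with limma-voom and 9.49 with a prior count of 2.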
